A study of Mus musculus with 4 samples.

Results

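The sympathoblast and neuroblastoma circuit genes described here are 8 genes, Hand1, Hand2, Phox2a, Gata2, Gata3, Isl1, Th and Dbh, of 21951 protein-coding genes in the mouse annotation. They were chosen by name, for their known part in the sympathetic lineage. No measured value enters the rule, but the choice was made with earlier results of these data known. Every V5 peak that overlapped the body of one of these genes, or the 10 kb on either side of it, was assigned to that gene, with no minimum on the strength of the peak. Of the 8 genes, 4 held a V5 peak in both Foxr2 p53LOF replicates (Hand2, Gata2, Gata3 and Isl1), against 63.7% of all protein-coding genes, and 4 held none in any library (Hand1, Phox2a, Th and Dbh). For each of the 4 genes with a peak, the highest fold was below that of the median gene with a peak. Only Hand2 kept a site after the filters of the study's methods, against 50.0% of all protein-coding genes.

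Sympathetic neurons and adrenal chromaffin cells arise from the neural crest through a progenitor called the sympathoblast, and most neuroblastomas outside the brain resemble this lineage. Its identity is held by a circuit of transcription factors that bind each other's regulatory DNA, among them the basic helix-loop-helix proteins Hand1 and Hand2, the homeodomain protein Phox2a, the zinc finger proteins Gata2 and Gata3 and the LIM homeodomain protein Isl1. Among the targets of the circuit are the enzymes of noradrenaline synthesis: Th makes L-DOPA from tyrosine, the rate-limiting step, and Dbh converts dopamine to noradrenaline. Brain tumors with FOXR2 activation are also called neuroblastomas, which is why the genes of the peripheral disease are of interest as possible targets of Foxr2.

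CUT&RUN, which maps a protein on chromatin by cutting out the DNA around a bound antibody, was performed for the V5 tag on a Foxr2 p53LOF line (2 replicates) and on V5 control cells (2 replicates). The Foxr2 p53LOF line (genotype FOXR2 P53LoF, C57BL/6J) came from a tumor induced by in utero electroporation of the ganglionic eminences with a piggyBac vector, which drove V5-tagged FOXR2 from the ubiquitous CAG promoter, and a CRISPR vector against Trp53, and it was grown as neurospheres. The control cells (genotype H3.3G34R, C57BL/6J) came from another electroporation model and carry no V5 tag, so the tag and the line cannot be told apart. No source used here says that replicates of a group were separate cultures, so their spread may be technical, and the peak lists hold no expression values with which to check the cell type or whether any circuit gene was transcribed. The Foxr2 p53LOF replicates held 31909 and 38580 peaks and the control replicates 308 and 124. The weakest deposited peaks of the Foxr2 p53LOF replicates had folds of 3.09 and 2.96 over the background of their library, made from 6 and 8 fragments at the summit, so that weaker enrichment was not detectable in these lists.

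Stretches at or next to peaks of the 4 genes that held one are shown as sequence, since the base composition of the starts is later compared between genes with and without a peak. All are from mm10 on the strand of the gene, and CpG dinucleotides are in capitals. The first is the stretch just upstream of the Hand2 start (chr8:57320733-57320982, + strand, RefSeq promoter), with 15 CpG, which the peak of replicate 2 covers and the peak of replicate 1 does not reach. Next come the 30 bases at the Hand2 summits of replicate 2 (chr8:57321032-57321061, + strand) and replicate 1 (chr8:57321150-57321179, + strand). They are followed by both Gata3 summits with 50 bases on either side (chr2:9879375-9879523, - strand) and by the summit of replicate 1 upstream of Isl1 (chr13:116309933-116310083, - strand). The last runs between the summits of both replicates upstream of Gata2 (chr6:88189439-88189737, + strand), where replicate 2 had its highest Gata2 peak and replicate 1 its lowest.
Hand2 upstream: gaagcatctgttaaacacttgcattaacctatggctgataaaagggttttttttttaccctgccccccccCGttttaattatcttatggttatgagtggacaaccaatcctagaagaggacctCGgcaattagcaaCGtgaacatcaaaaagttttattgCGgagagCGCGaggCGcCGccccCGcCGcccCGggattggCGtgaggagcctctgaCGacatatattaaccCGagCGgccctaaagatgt
Hand2 summit, replicate 2: CGtccagcccaagagaacCGcCGcCGctgc
Hand2 summit, replicate 1: caagattcttgtcCGgagaggagaggatct
Gata3 summits: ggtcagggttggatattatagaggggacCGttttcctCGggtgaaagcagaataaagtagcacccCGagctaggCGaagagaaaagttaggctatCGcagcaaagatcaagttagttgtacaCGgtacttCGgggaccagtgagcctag
Isl1 summit, replicate 1: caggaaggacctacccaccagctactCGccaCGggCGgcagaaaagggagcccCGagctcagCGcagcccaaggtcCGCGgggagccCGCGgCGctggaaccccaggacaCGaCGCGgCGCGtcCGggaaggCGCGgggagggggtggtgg
Gata2 upstream summits: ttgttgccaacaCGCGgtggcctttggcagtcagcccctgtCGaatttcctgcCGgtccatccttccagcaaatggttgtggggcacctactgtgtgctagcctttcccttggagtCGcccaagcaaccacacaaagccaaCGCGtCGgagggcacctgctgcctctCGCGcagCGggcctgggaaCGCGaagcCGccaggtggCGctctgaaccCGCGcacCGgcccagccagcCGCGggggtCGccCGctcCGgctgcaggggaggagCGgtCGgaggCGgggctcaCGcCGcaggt

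For contrast, the stretches just upstream of starts that held no peak are shown for Phox2a and for Th. The Phox2a stretch is chr7:101818063-101818312 (+ strand, RefSeq promoter). The Th stretch is chr7:142900015-142900245 (- strand, RefSeq promoter without the bases that GENCODE annotates as untranslated). The 1 kb around the start is counted as CpG-rich for Phox2a and not for Th, by a cut given later. The Phox2a stretch holds 22 CpG in 250 bp and the Th stretch 12 CpG in 231 bp. By the number of CpG in the 250 bp upstream, Phox2a stood at percentile 86.7 of RefSeq promoters, Hand2 at 74.6 and Th at 70.6. The Th stretch itself is thus not poor in CpG.
Phox2a upstream: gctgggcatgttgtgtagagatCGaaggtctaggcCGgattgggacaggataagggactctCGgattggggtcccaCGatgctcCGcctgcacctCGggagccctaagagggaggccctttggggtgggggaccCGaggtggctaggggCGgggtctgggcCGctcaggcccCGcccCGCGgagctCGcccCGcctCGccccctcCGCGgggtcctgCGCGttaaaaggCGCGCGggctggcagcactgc
Th upstream: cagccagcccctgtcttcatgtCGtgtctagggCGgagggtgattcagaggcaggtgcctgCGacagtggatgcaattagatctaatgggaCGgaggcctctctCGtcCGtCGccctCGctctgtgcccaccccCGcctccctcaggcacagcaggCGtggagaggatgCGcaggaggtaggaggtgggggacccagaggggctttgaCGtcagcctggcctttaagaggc

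Foxr2 p53LOF replicate 1 held 7 peaks in the regions of the 8 genes and replicate 2 held 6, against 0 in control replicate 1 and 0 in control replicate 2. The mean was 6.5 ± 0.707 peaks (SD, n = 2) in the Foxr2 p53LOF line and 0 in the control. The groups did not overlap, but an exact permutation test over the 4 libraries (two-sided, 6 arrangements) gave p = 0.333, the smallest value that 2 against 2 allows. The absence of control peaks was the usual case for a gene in these lists, since 0.556% of protein-coding genes held a peak in either control replicate. The nearest control peak to any of the 8 genes lay 1253245 bp from Th.

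Having a V5 peak did not set the circuit apart from other genes. Of all protein-coding genes, 66.1% held a peak in replicate 1, 66.9% in replicate 2 and 63.7% in both, and the 4 of 8 circuit genes lie near that background. All 4 also held a peak no more than 1 kb from a protein-coding start in both replicates, as did 51.3% of protein-coding genes. A peak with −log10 q above 6 in both replicates was present at 3 of the 8 genes (Hand2, Gata3 and Isl1) and at 55.0% of protein-coding genes. A peak with fold above 6 in both replicates was present at 1 of the 8 (Hand2) and at 50.9% of protein-coding genes. The region drawn around a gene also counted: within 50 kb on either side, 7 of the 8 genes held a peak in both replicates, all but Th, against 75.7% of protein-coding genes.

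Hand2, which specifies sympathetic and limb progenitors, held a peak at its start in both replicates, and both peaks had a fold above 6. The gene (ENSMUSG00000038193.4, chr8:57320983-57324633, + strand) has a single annotated protein-coding start. In replicate 1 the peak spanned chr8:57320984-57322524, began 1 bp from the start and reached a fold of 6.63 (95% Poisson interval 3.82 to 10.8, 14 fragments, −log10 q 8.43). In replicate 2 the peak spanned chr8:57320145-57322997 and reached a fold of 8.21 (95% interval 5.38 to 12.1, 24 fragments, −log10 q 15.6). The intervals cover counting error only and they overlap, so the replicates did not differ beyond counting error. The summits lay 182 and 64 bp downstream of the start, in the annotated 5′ untranslated region, where Hand2os1, a noncoding transcript of the opposite strand, also has an exon. CUT&RUN does not mark strand, so the signal cannot be assigned to the start of Hand2 or to that of Hand2os1, which lay 63 bp from the summit of replicate 1. The 1541 bp shared by both peaks passed the filters on control overlap, −log10 q, fold and length and made Hand2 the only circuit gene with a reproducible filtered site, against 50.0% of protein-coding genes. Among all 11947 such sites, the lower of its folds stood at percentile 17.6, counting sites at or below it.

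Hand1, the paralog of Hand2 and a partner in the same lineage, held no peak in any library. The gene (ENSMUSG00000037335.13, chr11:57828705-57832818, - strand) lay 22175 bp from the nearest peak of replicate 1 and 25148 bp from that of replicate 2. The nearest protein-coding start to either peak was that of Sap30l, 4602 bp from the summit in replicate 1 and 302 bp in replicate 2. The peak at Sap30l in replicate 2 had a fold of 14.1, above every peak assigned to a circuit gene.

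Phox2a, a homeodomain factor that directs the noradrenergic fate, held no peak either. The gene (ENSMUSG00000007946.11, chr7:101818313-101822726, + strand) lay 13449 bp from the nearest peak in replicate 1 and 12939 bp in replicate 2. Both nearest peaks belonged to the start of the neighbouring gene Inppl1, a lipid phosphatase gene, with summits 293 and 2 bp from that start. Their folds were 7.51 in replicate 1 and 8.54 in replicate 2. The pair of genes thus had opposite readings within a short stretch of chromosome 7: enrichment at the Inppl1 start and none that was called at Phox2a.

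Gata2, a zinc finger factor of blood, neural and sympathetic progenitors, held 3 peaks in replicate 1, the most of the 8 genes. It held 2 in replicate 2, as did Isl1. Each Gata2 peak had a fold under 6. The gene (ENSMUSG00000015053.14, chr6:88193891-88207032, + strand) has an outer start at position 88193891 and an inner start at position 88198334. Upstream of the gene, replicate 1 held a peak at chr6:88189030-88189619 with a fold of 3.53 (95% interval 1.69 to 6.81, 7 fragments), and replicate 2 a peak at chr6:88188752-88190108 with a fold of 5.26 (3.09 to 8.46, 15 fragments). These peaks shared 590 bp, and their summits lay 4452 and 4154 bp upstream of the outer start, in an intron of the lincRNA Gm38708. At the inner start, replicate 1 held a peak at chr6:88198372-88198851 with a fold of 4.86 (2.56 to 8.57) and replicate 2 a peak at chr6:88198136-88198683 with a fold of 4.60 (2.60 to 7.63), sharing 312 bp. Over the outer start, replicate 1 held a peak at chr6:88192940-88194672 with a fold of 4.42 from 9 fragments, and replicate 2 held none. Of the 5 Gata2 peaks, the upstream peak of replicate 2 was the only one with −log10 q above 6, at 6.89.

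Gata3, the paralog of Gata2 and a factor of T cells and of the sympathoadrenal lineage, held 1 peak in each replicate, at the same place. The gene (ENSMUSG00000015619.10, chr2:9857078-9890034, - strand) has an outer start at position 9890034 and an inner start at position 9878600. The peak of replicate 1 spanned chr2:9878602-9880112 with a fold of 7.07 (95% interval 4.15 to 11.4, 15 fragments, −log10 q 9.47). The peak of replicate 2 spanned chr2:9878760-9879997 with a fold of 5.59 (3.33 to 8.86, 16 fragments, −log10 q 7.77). The peaks shared 1238 bp, and their summits lay 825 and 873 bp upstream of the inner start, in an intron of the longer transcripts. The outer start held no peak in either replicate. The peak of replicate 1 passed all filters, and that of replicate 2 missed only the minimum fold of 6, by less than its counting error, so that Gata3 was a gene just outside the rule for a reproducible site and Hand2 just inside it.

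Isl1, a LIM homeodomain factor of sympathetic, motor and sensory neurons, held a peak at its starts in both replicates and 1 further peak in each that the other lacked. The gene (ENSMUSG00000042258.13, chr13:116298281-116309689, - strand) has starts at positions 116309689 and 116309422. Replicate 1 held a peak at chr13:116308165-116310439 with a fold of 5.74 (95% interval 3.18 to 9.70, −log10 q 6.45). Replicate 2 held a peak at chr13:116308564-116309681 with a fold of 4.93 (2.84 to 8.05, −log10 q 6.05). The peak of replicate 1 covered both starts and that of replicate 2 only the inner one. The peaks shared 1118 bp, with a summit 319 bp upstream of the outer start in replicate 1 and 118 bp downstream of it in replicate 2. The peaks found in a single replicate were weaker: chr13:116297466-116297959, past the 3′ end of the gene, in replicate 1 with a fold of 3.53, and chr13:116310447-116310825, upstream, in replicate 2 with a fold of 3.29. These were made from 7 and 9 fragments, close to the fewest of any deposited peak.

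**Figure D1:**
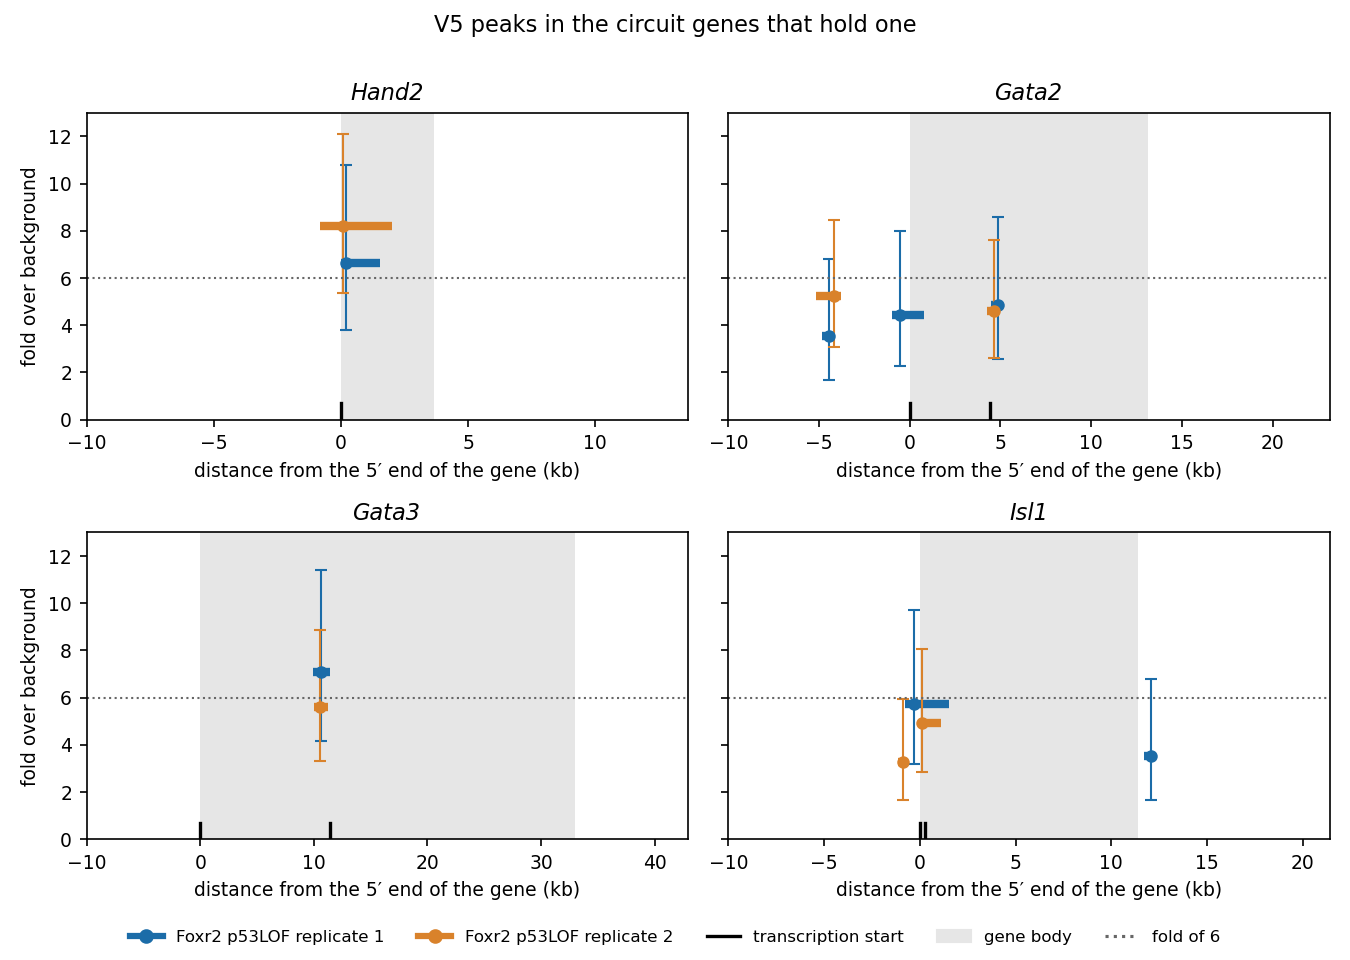
V5 peaks at Hand2, Gata2, Gata3 and Isl1 by distance of the peak from the 5′ end of the gene (x axis, kb) and by fold over background (y axis). Bars span each peak, points mark summits with 95% Poisson intervals, black ticks mark protein-coding starts, and grey marks the gene body; only the Hand2 peaks lie above the dotted line at a fold of 6 in both replicates.

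Th and Dbh, the enzyme genes, held no peak in any library. Th (ENSMUSG00000000214.11, chr7:142892752-142931128, - strand) was the most isolated of the 8 genes, with its nearest peak 76842 bp away in replicate 1 and 76402 bp away in replicate 2, near the start of Tspan32. These distant peaks had folds of 5.74 and 5.59. Dbh (ENSMUSG00000000889.8, chr2:27165233-27183200, + strand) lay 15603 and 15393 bp from its nearest peaks, in the neighbourhood of Sardh, the gene of a mitochondrial sarcosine dehydrogenase. Those peaks had a fold of 3.98 in replicate 1 and 6.90 in replicate 2. The region searched for Th, at 58377 bp, was the longest of the 8, while those of Hand2, Hand1 and Phox2a were the shortest, at 23651, 24114 and 24414 bp.

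Where a circuit gene held a peak, its highest fold was below that of the median gene with a peak in both replicates. The highest fold is taken over the whole region searched. Of all genes with a peak in both replicates, 4359 had regions of at least 65106 bp, longer than any of the 8. The part of length in this comparison was not tested. In replicate 1 the highest folds were 7.07 at Gata3, 6.63 at Hand2, 5.74 at Isl1 and 4.86 at Gata2, with a median of 6.19 against 9.28 over the 14513 protein-coding genes with a peak. In replicate 2 they were 8.21 at Hand2, 5.59 at Gata3, 5.26 at Gata2 and 4.93 at Isl1, with a median of 5.42 against 10.8 over 14685 genes. Gata3 led in replicate 1 and Hand2 in replicate 2, and the intervals of all 4 genes overlapped in each replicate, so no order among them held beyond counting error. Among genes with a peak, Hand2 stood at percentiles 27.1 and 33.7 in replicates 1 and 2, Gata3 at 30.8 and 15.0, Isl1 at 19.4 and 10.5, and Gata2 at 12.0 and 12.8. Among all peaks of a library, and not among the highest peak of each gene, the same peaks stood higher: Hand2 at percentiles 65.6 and 75.1 in replicates 1 and 2, Gata3 at 68.8 and 57.9, Isl1 at 57.5 and 50.3, and Gata2 at 45.9 and 54.5. All but the Gata2 peak of replicate 1 were at or above the median fold of the peaks in their library, which was 5.30 in replicate 1 and 4.93 in replicate 2.

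**Figure D2:**
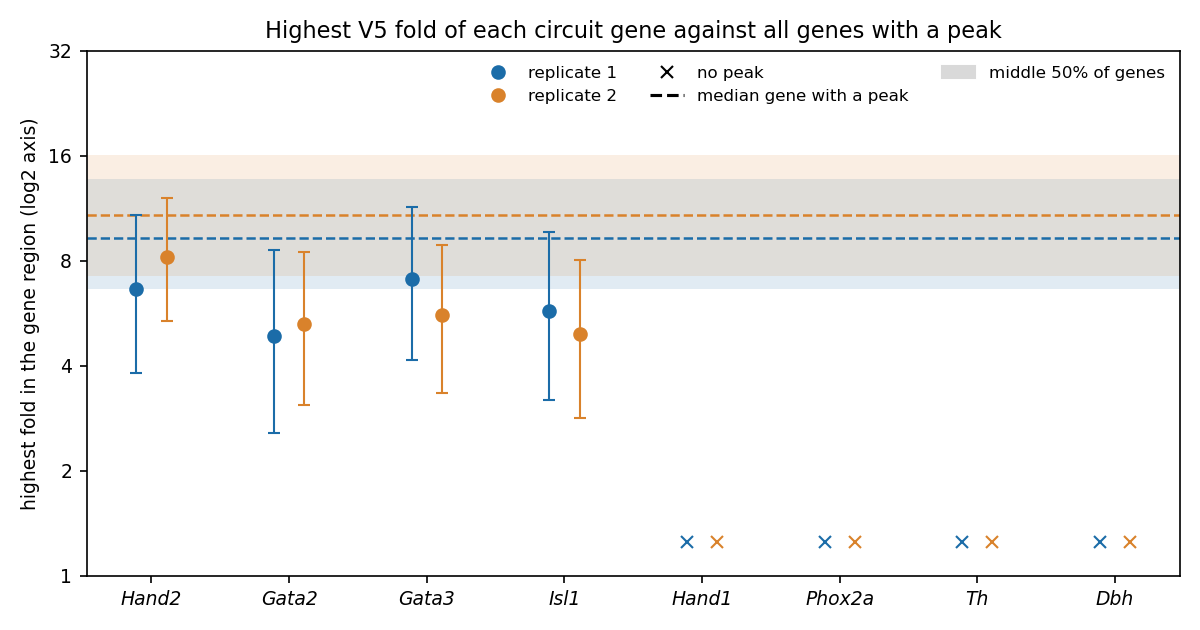
Highest fold in the region of each circuit gene (y axis, log2 axis) in each Foxr2 p53LOF replicate, with 95% Poisson intervals; crosses mark genes without a peak. Dashed lines are the median over all genes with a peak in that replicate (9.28 and 10.8) and shading spans the middle 50% of those genes; every circuit gene lies below its line.

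The starts of the 8 genes differed in base composition along the same line as the peaks, with 1 exception. A start was counted as CpG-rich where the 1 kb around it had at least 50% GC and at least 0.6 of the CpG dinucleotides that its base composition would give. Hand2 (53.7% GC, ratio 0.743), Gata2 (67.9%, 0.767), Gata3 (53.9%, 0.638 at the inner start and 0.481 at the outer one), Isl1 (63.3%, 0.774) and Phox2a (67.0%, 0.703) had such a start. Hand1 (at most 0.386), Th (at most 0.266) and Dbh (0.223) had none. Thus 4 of the 5 circuit genes with a CpG-rich start held a peak in both replicates, against 90.9% of 10940 genes with such a start, and 0 of the 3 others did, against 36.4% of 10913 genes. Phox2a was the exception, CpG-rich and without a peak. At Gata3 the peak lay upstream of the inner start, which was above the cut, and not at the outer one. Its summits, 825 and 873 bp from the inner start, lay outside the 1 kb in which composition was measured. At Gata2 the order was the other way. The outer start had the higher ratio and a peak in replicate 1 only, while the inner start (64.4%, 0.659) had a peak in both replicates. The share of CpG-rich genes with a reproducible filtered site was 75.5%, and 1 of the 5 CpG-rich circuit genes had one. The cut was chosen after the data were seen, and with stricter minimums of 60% and 0.65 only Gata2, Isl1 and Phox2a stay CpG-rich, 2 of them with a peak.

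**Figure D3:**
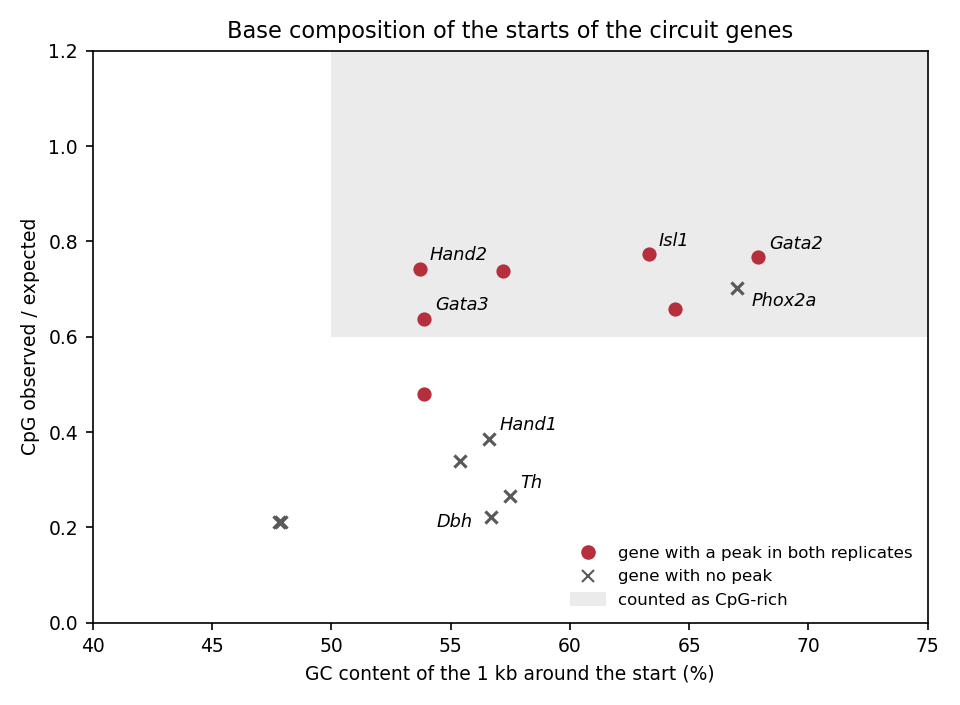
GC content (x axis, %) and observed over expected CpG (y axis) of the 1 kb around every protein-coding start of the 8 genes, a point per start; the shaded area holds starts counted as CpG-rich. Circles (genes with a peak in both replicates) reach the shaded area at Hand2, Gata2, Gata3 and Isl1, and of the crosses (genes without a peak) only Phox2a does.

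In the 200 bp around the summits of the 7 and 6 circuit peaks, none of 7 short motifs was found on either strand. These were CCGGAA and CCGGAAGT, cores of the ETS family (the second contains the first), GTAAACA of forkhead proteins, AGATAA of GATA factors, TAATTA of homeodomain proteins, CATCTG, an E-box that HAND proteins can bind, and CATTGT of SOX proteins. Among all peaks of replicate 1, CCGGAA was in 5.49% of windows, CCGGAAGT in 0.518%, GTAAACA in 2.52%, AGATAA in 8.84%, TAATTA in 4.58%, CATCTG in 12.6% and CATTGT in 8.94%. In replicate 2 the shares ran from 0.472% for CCGGAAGT to 13.1% for CATCTG. The circuit windows are few, and those of Hand2 and of Gata3 overlap between replicates. No match says only that these letters are missing there.

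Other transcription factors of the adrenergic neuroblastoma state differed in count from the 8 genes. All 13 listed held a peak in both replicates, and 8 held a reproducible filtered site: Mycn, Tbx2, Klf7, Klf13, Meis2, Sox11, Eya1 and Lmo3. Klf7, a Krüppel-like factor, had the highest folds of the list, 19.9 in replicate 1 and 20.0 in replicate 2. Sox11, a SOX factor of immature neurons, followed with 16.3 and 18.7 in those replicates, and Klf13 had 14.6 and 18.1. Mycn, the oncogene amplified in aggressive neuroblastoma, had 8.84 and 8.21. The median highest fold of the list was 7.07 and 7.88, above that of the 4 circuit genes with a peak and below that of all genes with a peak. No test was run between these hand-chosen lists, which differ in CpG-rich starts (10 of 13 against 5 of 8) and in the length of the regions searched.

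Among 12 further genes of catecholamine handling and chromaffin granules, 6 held a peak in both replicates and 3 a reproducible filtered site. The 3 were Ddc, the enzyme after Th in the pathway, with highest folds of 11.5 and 13.5, Slc18a1, a vesicular monoamine transporter, with 6.63 and 7.23, and Maoa, which degrades monoamines, with 11.0 and 9.86. The peaks assigned to Ddc were not within 1 kb of a start in both replicates. Slc18a2, Slc6a2, Chga, Chgb and Cartpt held no peak, so in the synthesis and storage of noradrenaline the genes without a peak, Th and Dbh included, stood beside genes with one. Of 12 neurotrophic receptor and ligand genes, 10 held a peak in both replicates and 7 a reproducible filtered site, and Ret, the receptor of the GDNF family, was among those without a peak.

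Of 9 family relatives of the circuit genes, 3 held a peak in both replicates and 1 a reproducible filtered site, Moxd1, a relative of Dbh, with folds of 18.1 and 23.0. Gata1, Gata5 and Tph2 were among those without a peak. Moxd1 thus held a peak near its start in both replicates where Dbh held none within 10 kb. Of 11 genes of the mesenchymal neuroblastoma state, 8 held a peak in both replicates and 6 a reproducible filtered site.

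Among genes of the lineages that the electroporated cells could take in the brain, 4 of 10 genes of the ganglionic eminence and interneurons held a peak in both replicates and 0 a reproducible filtered site. Their median highest folds were 4.86 and 4.93. All 9 oligodendroglial genes held both, with medians of 13.3 and 15.1. These are descriptions of hand-chosen lists, and no list was tested against another. The share of genes with a peak in both replicates also rose with the length of the region searched, from 42.5% of genes with regions of at most 26509 bp to 79.4% of genes with regions of at least 65106 bp. None of the 8 circuit genes had a region of the latter length, while Nfia, Nfib and Zfp536 of the oligodendroglial list did, as did Klf7, Klf13, Meis2, Eya1 and Lmo3, 5 of the 13 adrenergic transcription factor genes, each with a reproducible filtered site. Ddc, Slc18a1, Maoa and Moxd1 also had regions of that length and such a site, while Ret, Tph2, Gad1 and Gad2 had regions of that length and no peak. The part of length in these counts was not tested.

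**Figure D4:**
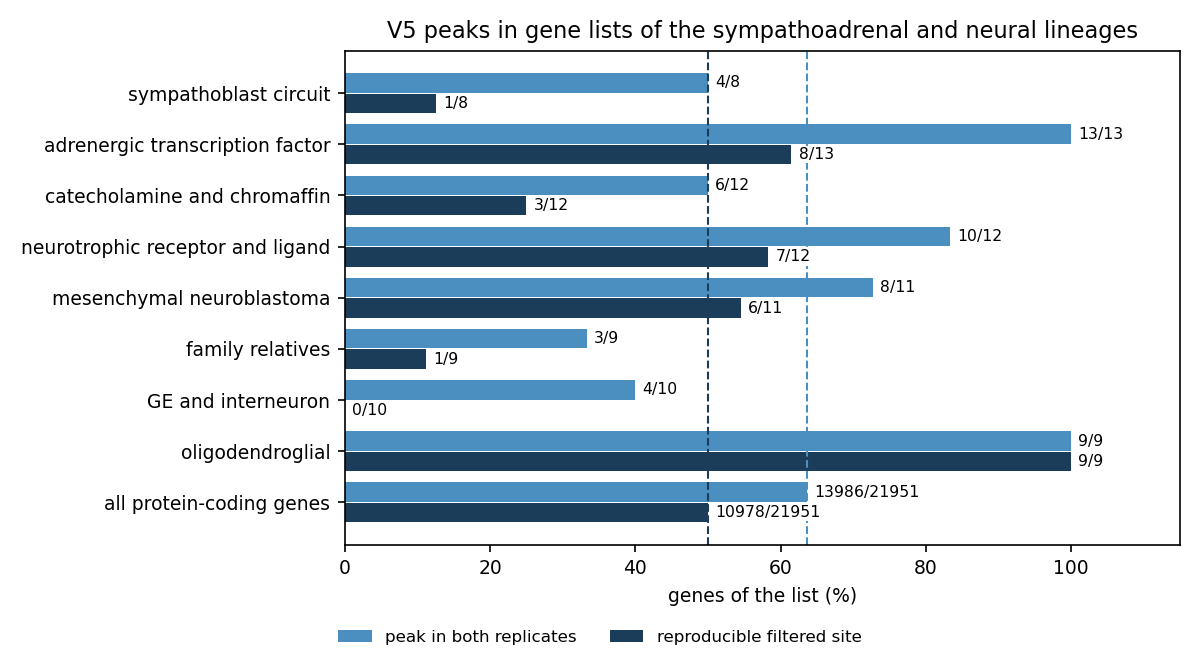
Share of the genes of each list (x axis, %) with a peak in both Foxr2 p53LOF replicates (light bars) and with a reproducible filtered site (dark bars), with counts at the bar ends; dashed lines mark the same shares over all protein-coding genes (63.7% and 50.0%). The 8 circuit genes lie below the dark line with 1 of 8.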

How the data were processed

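V5 CUT&RUN peak lists were analysed for 2 Foxr2 p53LOF and 2 V5 control replicates, with groups and replicate numbers taken from the sample labels. Per the submitters' processing notes, the authors used Trimmomatic (0.39), BWA (0.7.17), Picard (2.26.6), HOMER (4.11) and MACS2 (2.2.7.1) with mm10, and called peaks library by library. The deposited fold (signalValue) is the MACS2 ratio of summit to background fragments, each plus 1. The −log10 p and −log10 q columns were deposited as MACS2 wrote them for each library, and the deposited score, a rescaled −log10 q, was not used. A fold is relative to its own library, so folds were not pooled across libraries.

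Read totals are not in the peak lists. The background of each library (1.264 and 2.044 fragments for Foxr2 p53LOF, 1.694 and 0.6425 for the control) was recovered as the value at which 100% of the folds up to 30 gave whole fragments within 0.02, and fragments gave exact 95% Poisson intervals. A fold above 6 thus needs 13 fragments in Foxr2 p53LOF replicate 1 and 18 in replicate 2. Genes are from GENCODE release M21 and sequence from GRCm38, the build of mm10. Filters followed the study's methods: no overlap of at least 10 bp with a control peak, −log10 q above 6, fold above 6 and length under 10000 bp. A reproducible site is a stretch of at least 1 bp covered by filtered peaks of both replicates. The step that kept only accessible chromatin was not repeated here.

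No model across samples was fitted. Counts of genes were set beside the same counts over all protein-coding genes, and the number of peaks per library was compared by an exact permutation test. The members and gene lists were chosen with earlier results of these data known. All 8 genes are named, and of other lists the genes with a reproducible site or without any peak. Some results for single genes are not reported here. RefSeq promoters matched 7 of the 8 genes (all but Hand1). Alternatives covered the gene region, minimum fold and −log10 q, the overlap of replicates, the start window and leaving out each replicate. Scripts (Python 3.11.15, pandas 2.3.3, scipy 1.17.1, pysam 0.24.0) were tested on simulated data.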

Additional observations from a re-analysis of the deposited data

How the results depend on the processing

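No paired analysis was possible because the results are counts of peaks and genes and not a fitted model across samples. Of 42 recomputed values that answer a comparison, 28 moved by no more than the replicate spread or 1.5 times the count reported, and 14 moved further. With 50 kb on either side, the genes with a peak in both replicates went from 4 to 7 and the mean number of peaks from 6.50 to 14. The genes with a reproducible filtered site went from 1 to 3 (Hand1, Hand2 and Phox2a). The peaks nearest to Hand1 and Phox2a lay closest to the protein-coding starts of their neighbours Sap30l and Inppl1. With a minimum fold of 6, the genes with a peak in both replicates and those with one near a start each went to 1 (Hand2), the mean number of peaks to 1.50 and the adrenergic transcription factor genes from 13 to 8. A minimum −log10 q of 6 lowered the mean number of peaks to 3.50. A reproducible filtered site was present at 0 genes with a minimum fold of 10 and at 0 with a minimum −log10 q of 10. The shares of all protein-coding genes at these stricter minimums, and with a filtered site within 50 kb, were not computed. These counts therefore do not set the circuit apart from other genes. Leaving out a Foxr2 p53LOF replicate gave 1 to 2 genes with a filtered site: Gata3 joined without replicate 2. It gave 4 to 4 genes with a peak, 4 to 4 near a start and 13 to 13 adrenergic genes, and leaving out a control replicate gave 0 to 0 genes with a control peak. Divided by the median fold of the peaks on the same chromosome, the median highest fold was 1.17 in replicate 1 and 1.15 in replicate 2, which is a change of scale. An alternative added after seeing the data, a stricter CpG-rich start, left 2 such genes with a peak of 3. With 6 to 8 fragments as the fewest in a peak and 7 to 24 in the circuit peaks, the 95% counting interval of every circuit peak but the upstream Isl1 peak of replicate 2 (up to 5.94) spans the minimum fold of 6.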
